A study of Homo sapiens with 4 samples.

Results

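The genes described here are 227 human long intergenic noncoding RNA genes whose symbol is LINC followed by a number, measured in neuroblastoma cells with and without knockdown of METTL14. They were selected on a measured value, the summed raw read count over the 4 libraries, which had to reach 40, and this sum does not use the group labels. Of 60671 genes in the count table, 2267 carried such a symbol. No read was counted for 1421 of these, and 619 had a sum above 0 but below the threshold. Exactly at the threshold were 4 genes. Of these, LINC00886 had 14 and 14 counts in shNC and 6 and 6 in shMETTL14, LINC01597 had 9, 18, 3 and 10, LINC02166 had 14, 6, 11 and 9, and LINC02812 had 18, 18, 1 and 3. Just outside it, LINC02649 had 18, 11, 2 and 8 counts and LINC03026 had 8, 17, 5 and 9.

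LINC symbols are given to long noncoding RNA genes that lie between protein-coding genes and have no better name. Most such RNAs are spliced and polyadenylated like messenger RNA but are less abundant, more restricted to particular cell types and often retained in the nucleus, where the RNA exosome degrades many of them. METTL14 is the RNA-binding partner of METTL3 in the enzyme that places N6-methyladenosine on RNA, mostly at adenosines in sequences such as GGACT, and noncoding transcripts are also modified.

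The cells were SK-N-BE(2), an established human line from a neuroblastoma, in which MYCN is amplified. They carried either a nontargeting control hairpin (shNC, 2 libraries) or a hairpin against METTL14 (shMETTL14, 2 libraries). The study made its knockdowns with the lentiviral vector pLKO.1. The labels name neither which METTL14 hairpin was used nor separate cultures, so the p-values measure the spread between these libraries and that spread may be technical. METTL14 had 753 and 754 counts in shNC and 303 and 321 in shMETTL14, or 41.7% of the control level (log2 fold change -1.26 ± 0.08 SE, edgeR adjusted p = 3.6e-11). The libraries held between 18925786 and 19886214 counts in genes. All 9 noradrenergic neuroblastoma markers were expressed, with a summed level of 5684 and 5553 CPM (counts relative to the scaled library size) in shNC and 5539 and 5592 in shMETTL14. Of these markers, 2 were higher (ISL1 and MYCN, 22.2%) and 7 lower (77.8%). At the level of these markers (4 log2 CPM and over), 39.5% of all genes tested were higher and 26.0% lower. The 3 immune markers summed to 1.86 and 2.19 CPM in shNC and 1.63 and 1.61 in shMETTL14, and the 2 endothelial markers to between 0.0502 and 0.312 CPM in all libraries. The 3 epithelial markers summed to 5.32 and 5.33 against 3.47 and 2.81 CPM, with EPCAM called lower, and the 4 Schwann cell markers to 5.07 and 4.65 against 3.37 and 3.85 CPM, with S100B called lower and SOX10 at 0 in every library.

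All 227 LINC genes had an entry in GENCODE 29 on GRCh38, where 183 were annotated as lincRNA, 17 as processed transcript and 11 as antisense. They lay on 23 chromosomes, with 28 on chromosome 2 and 25 on chromosome 1. The longest transcript had a median of 3 exons, and 38 genes had a single exon. Although called intergenic, 124 overlapped another annotated gene, 102 of them on the opposite strand. Exon bases were shared with another gene in 74, and with a protein-coding gene in 17. The strand setting of the counting was not given in the sources used here, so reads from bases shared with such overlapping genes cannot be told apart.

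Sequence is shown for LINC02268 and LINC01833 because LINC02268 was the most abundant LINC gene and LINC01833 had the largest fall among those above 5 CPM. The first is a 25-base window of exon 3 of LINC02268 (GRCh38, chr4:174097632-174097656, minus strand), and the second a window of exon 2 of LINC01833 (chr2:44923292-44923316, minus strand). Capitals mark GGACT.
LINC02268: gagtcaggaaGGACTtcctgctgca
LINC01833: tggcatgtgaGGACTgcatcccacg
The 1328-base transcript of LINC02268 held GGACT 5 times, or 3.77 per kb, the highest density among the 227 longest transcripts. The 2880-base transcript of LINC01833 held it 7 times. At least 1 copy was present in 65 of 80 genes called lower, 18 of 24 called higher and 86 of 123 not called. The median density was 0.821 per kb in the lower, 0.893 in the higher and 0.794 in the uncalled genes. LINC00839 and LINC02607, both abundant and lower, held no copy in their longest transcript. Methylation was not measured in these libraries.

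RefSeq promoters (GRCh38.p14, 250 bases before to 50 after the start) were found for 161 of the LINC genes. The E-box CACGTG, the same on both strands and the sequence bound by MYC proteins, was present in 13 of them (8.07%) and in 7.43% of all 27305 promoters. It occurred in 4 of 64 promoters of lower and 1 of 13 of higher genes. The GC box GGGCGG, on either strand, was present in 49.1% of the LINC promoters and 44.6% of all promoters, and the median number of CG dinucleotides was 14 in both. By call, this median was 10 in promoters of lower, 10 in those of higher and 18 in those of uncalled LINC genes. These matches describe the sequence and are not binding sites.

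LINC RNAs were low in abundance, and as a group they were lower after METTL14 knockdown. They made up 0.177% and 0.173% of gene counts in shNC and 0.138% and 0.137% in shMETTL14. After scaling, their summed level was 1740 and 1715 CPM in shNC and 1397 and 1391 CPM in shMETTL14, or 80.7% of control, and the groups did not overlap. In RNA from whole cultures, fewer cells of a type and less RNA per cell cannot be told apart. The 5 genes with the largest fall in CPM (LINC02268, LINC02607, LINC00682, LINC00632 and LINC00839) held 56.1% of the difference, and the other genes together stood at 88.8% of control.

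In the edgeR quasi-likelihood test over 16309 genes, 104 of the 227 LINC genes (45.8%) were called at an adjusted p under 0.05, against 52.5% of all genes tested. Of these, 24 (10.6%) were higher in shMETTL14, where 27.2% of all genes were, and 80 (35.2%) were lower, where 25.3% of all genes were. A change of at least 2-fold was called in 8 higher (3.52%) and 40 lower (17.6%) LINC genes, beside 2.8% and 5.99% of all genes. The shMETTL14 libraries were both above both shNC libraries for 47 LINC genes (20.7%) and both below for 126 (55.5%), beside 38.0% and 37.6% of all genes. The median log2 fold change was -0.37, with quartiles at -0.82 and 0.15, beside -0.00095 over all genes. The sum would have missed the threshold for 28 LINC genes if both groups had stood at the counts of the lower one, so that these could enter only with a difference. They include 11 of the 80 lower and 2 of the 24 higher genes (LINC02986 and LINC02735), all of them changed at least 2-fold. Without shNC replicate 2, 69 LINC genes were called, and 55 of the 104 were called whichever library was left out. With upper quartile scaling, 18 LINC genes were higher and 88 lower, and the share of higher calls among all called genes went from 51.8% to 41.7%.

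**Figure D1:**
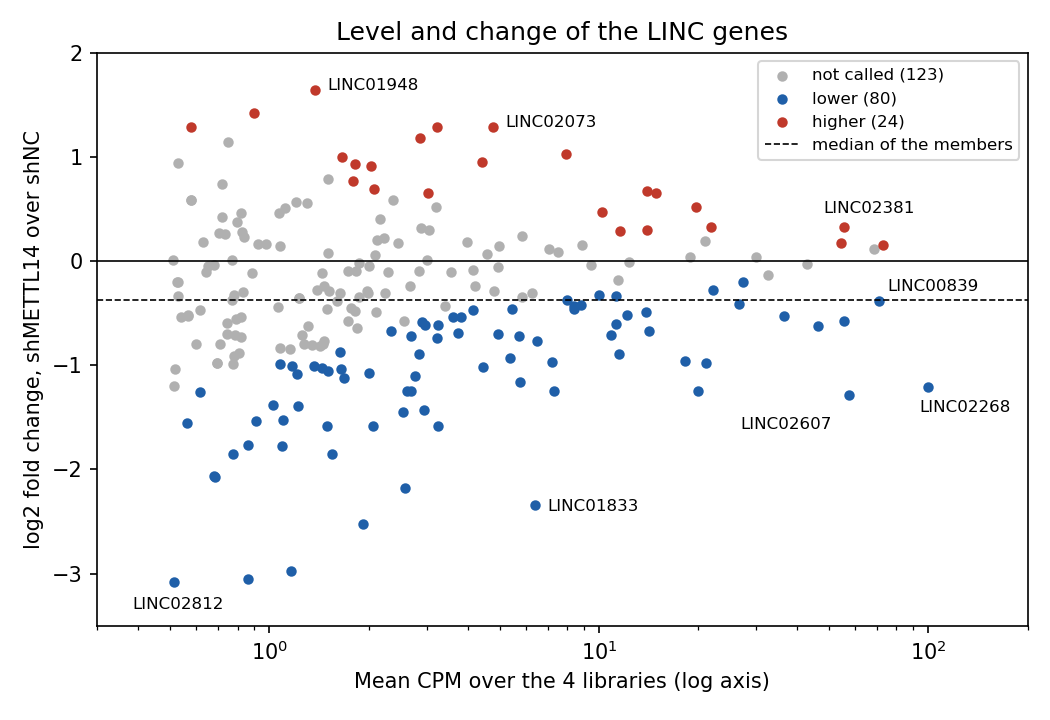
Each point is 1 of the 227 LINC genes, with its mean level in CPM on a log axis and its log2 fold change, shMETTL14 over shNC; colors mark the edgeR call. Lower genes (80) outnumber higher ones (24), and the dashed line marks the median of -0.37.

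The LINC genes were measured with less precision than most genes. Their median level was 1.06 log2 CPM, beside 4.28 for all genes tested, and the median standard error of the log2 fold change was 0.297, beside 0.0952. Within the same range of level, the share called lower was larger among LINC genes than among all genes except at the lowest levels. Below a mean of 0 log2 CPM, 8 of 53 LINC genes were lower (15.1%, beside 17.6% of all genes at that level). From 0 to 2 log2 CPM, 37 of 104 were lower (35.6%, beside 22.9%), and from 2 to 4, 23 of 47 (48.9%, beside 30.0%). At 4 and over, 12 of 23 were lower (52.2%, beside 26.0%) and 5 were higher (21.7%, beside 39.5%).

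Other noncoding classes showed shares closer to those of the LINC genes than protein-coding genes did. Of 559 lincRNA genes under other names, 40 were higher and 172 lower, with a median log2 fold change of -0.32. Among 997 genes annotated as antisense, 45 were higher and 268 lower (median -0.34). Of 12806 protein-coding genes, 4220 were higher and 3272 lower (median 0.04). Protein-coding genes were mostly at higher levels, with a median of 4.98 log2 CPM. Below 0 log2 CPM their median log2 fold change was -0.36, beside -0.47 for LINC genes, and 23.6% were lower, beside 15.1%. The medians were -0.18 and -0.46 from 0 to 2, -0.02 and -0.32 from 2 to 4, and 0.07 and -0.20 at 4 and over. These counts are descriptions, and no test compared the classes.

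**Figure D2:**
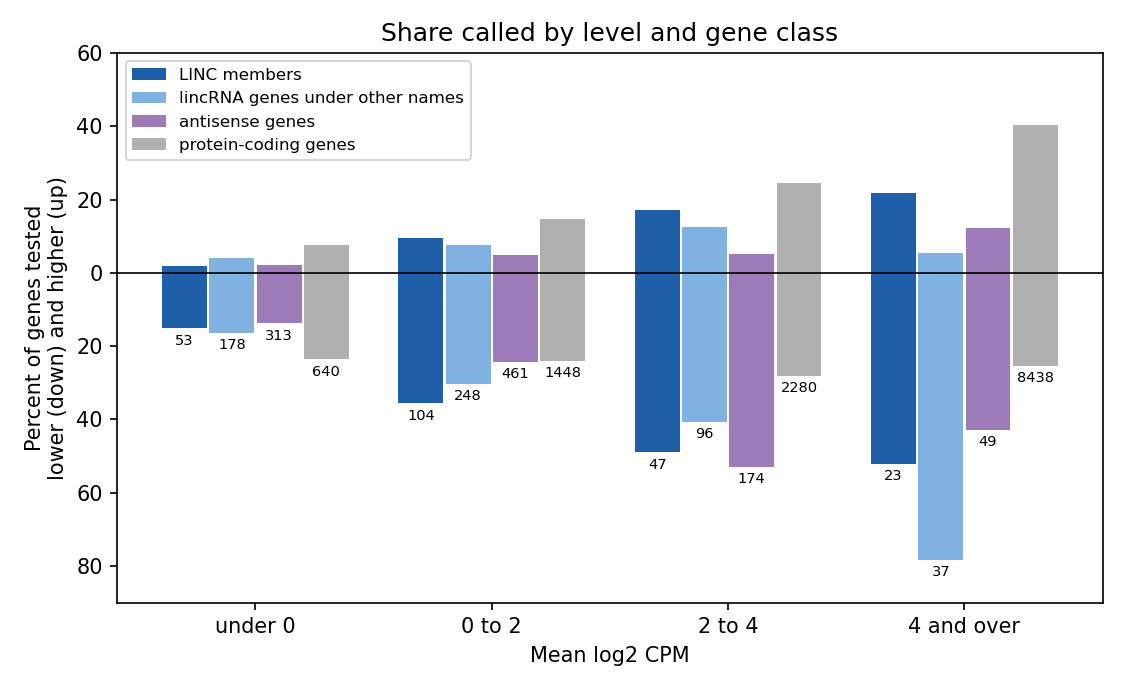
Bars give the percent of tested genes called higher (upward) and lower (downward) in shMETTL14, by mean log2 CPM, for the LINC genes and 3 other classes; the numbers are genes tested. At 4 and over, 52.2% of LINC genes and 25.3% of protein-coding genes were lower.

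The most abundant LINC genes per kb of exon included several of the clearest decreases. LINC02268 (chr4:174094660-174220398) stood at 87.7 and 79.9 CPM per kb in shNC and 37.7 and 35.0 in shMETTL14. It fell to 43.4% of control (log2 fold change -1.21 ± 0.05 SE, edgeR adjusted p = 7.0e-14). LINC02607 (chr1:95510116-95782342) had 1581 and 1594 counts in shNC and 627 and 664 in shMETTL14. Both shMETTL14 libraries were thus far below both controls, with a log2 fold change of -1.29 ± 0.06 (SE, edgeR adjusted p = 1.7e-13). LINC00839 had 1559 and 1565 against 1248 and 1135 counts (-0.38 ± 0.05), LINC00682 had 1352 and 1249 against 851 and 881 (-0.58 ± 0.06), and LINC01116 had 846 and 834 against 600 and 561 (-0.52 ± 0.07). In the opposite direction, LINC02381, which overlaps the DNA repair gene SMUG1 on the other strand, had 992 and 930 against 1213 and 1180 counts (0.33 ± 0.06). The groups did not overlap for any of these genes. LINC03046 (110 and 99 against 114 and 131 counts) and LINC00342 (885 and 809 against 869 and 778) were not called, with log2 fold changes of 0.24 ± 0.16 and -0.03 ± 0.07. Of the 31-base stretches of the longest LINC00342 transcript, 45.8% also occur in transcripts of other genes, so its reads may be split or dropped.

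The largest decreases were mostly in genes with few reads. LINC02812 had 18 and 18 counts in shNC and 1 and 3 in shMETTL14, so that 36 of its 40 counts, without which it would not have been included, came from shNC. With so few reads, the ratio of summed counts per library size was 8.94 with a 95% interval from 3.21 to 34.6 that covers counting error only. LINC01163 had 28 and 32 against 6 and 1 counts (log2 fold change -3.05 ± 0.55 SE), and LINC01152, 79723 bases from the neural crest and cartilage regulator SOX9, had 42 and 39 against 8 and 2 (-2.98 ± 0.48). SOX9 itself had 452 and 410 against 396 and 319 counts (-0.26 ± 0.10, edgeR adjusted p = 0.031). LINC01550 had 61 and 67 against 13 and 9 counts (-2.52 ± 0.34), and LINC00639 had 89 and 76 against 22 and 14 (-2.18 ± 0.29). In each of these genes, both shMETTL14 libraries were below both shNC libraries, as in all 80 LINC genes called lower. With 2 libraries in each group, this follows largely from the call itself. LINC01163 and LINC01152, like LINC02812, would have missed the threshold of 40 if both groups had stood at their shMETTL14 counts. The size of the 3 largest falls depended on single shMETTL14 libraries. Without shMETTL14 replicate 1 the log2 fold change was -2.51 for LINC02812, -4.72 for LINC01163 and -4.23 for LINC01152, and without replicate 2 it was -4.005, -2.29 and -2.32.

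LINC01833 (chr2:44921077-44939199) had 233 and 186 counts in shNC and 41 and 41 in shMETTL14, or 19.7% of control (log2 fold change -2.34 ± 0.18 SE, edgeR adjusted p = 4.3e-10). It starts 2699 bases from SIX3, a homeobox regulator of forebrain and eye development, and the 2 genes are transcribed away from each other. SIX3 had 2133 and 2114 counts in shNC and 1069 and 1065 in shMETTL14 (-0.98 ± 0.05, edgeR adjusted p = 5.0e-13). Both genes were therefore lower, the LINC gene by more. LINC01833 also overlaps other annotated genes on both strands.

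The other decreases among the 12 largest were LINC02709, LINC02970, LINC02269, LINC02440, LINC00663 and LINC00595, with log2 fold changes from -2.07 to -1.77. At least LINC02709, LINC02970 and LINC02269 would have missed the threshold of 40 summed counts if both groups had stood at their shMETTL14 counts. LINC00663 and LINC00595 were also low, with fewer than 10 counts in at least 1 library. LINC02440 had 51 and 44 against 14 and 12 counts, while its nearest coding gene SRRM4, a neuronal splicing regulator, was higher (0.69 ± 0.09 SE). The calls of 3 of them were lost without 1 library. LINC02709 had 11 and 32 against 7 and 3 counts and was not called without shNC replicate 2 (-1.08) or without shMETTL14 replicate 2 (-1.60), while its log2 fold change was -2.67 without shNC replicate 1 and -2.77 without shMETTL14 replicate 1. Without shNC replicate 1, LINC02970 (26 and 17 against 6 and 4 counts) and LINC02269 (31 and 17 against 8 and 5) were not called either, with log2 fold changes of -1.77 and -1.40.

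Fewer LINC genes rose, and the largest increases were in genes of low level. LINC02693, which GENCODE 29 lists as protein-coding, had 96 and 108 counts in shNC and 206 and 207 in shMETTL14 (log2 fold change 1.03 ± 0.14 SE, edgeR adjusted p = 2.8e-06). LINC02073 had 51 and 57 against 126 and 137 counts (1.29 ± 0.19), and LINC01948 had 15 and 11 against 41 and 40 (1.64 ± 0.37). Both shMETTL14 libraries were above both controls in these 3 genes, as in all 24 LINC genes called higher, which again follows largely from the call. LINC01828 and LINC01829 overlap on opposite strands of chromosome 2 and rose together, LINC01828 from 57 and 60 to 127 and 99 counts (0.96 ± 0.20) and LINC01829 from 34 and 34 to 70 and 84 (1.19 ± 0.25). Without strand, reads from bases that this pair shares cannot be told apart. LINC00926 had 28 and 27 against 51 and 52 counts (0.91 ± 0.28).

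Of the 12 increases, 5 lost their call when 1 library was left out. LINC02986 (12 and 7 against 27 and 24 counts) did so without shNC replicate 2 (log2 fold change 1.12) or shMETTL14 replicate 1 (1.35). LINC02735 (7 and 6 against 16 and 16 counts) did so without any 1 of the 4 libraries (1.22 to 1.37). LINC01220, near the immediate early gene FOS, had 20 and 23 against 43 and 43 counts and was not called without shNC replicate 1 (0.87). FOS itself was lower, with 8164 and 7844 counts in shNC and 4520 and 4457 in shMETTL14 (-0.83 ± 0.04 SE). LINC00574 (25 and 24 against 55 and 38 counts) was not called without shNC replicate 1 (0.93), shNC replicate 2 (0.93) or shMETTL14 replicate 1 (0.66), nor LINC01088 (32 and 20 against 48 and 40 counts) without shNC replicate 2 (0.50), shMETTL14 replicate 1 (0.65) or shMETTL14 replicate 2 (0.89). LINC01088 was also not called with upper quartile scaling (0.70). DESeq2 did not call these 5 genes or LINC00926, with adjusted p from 0.074 to 0.20 and 0.078 for LINC00926.

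**Figure D3:**
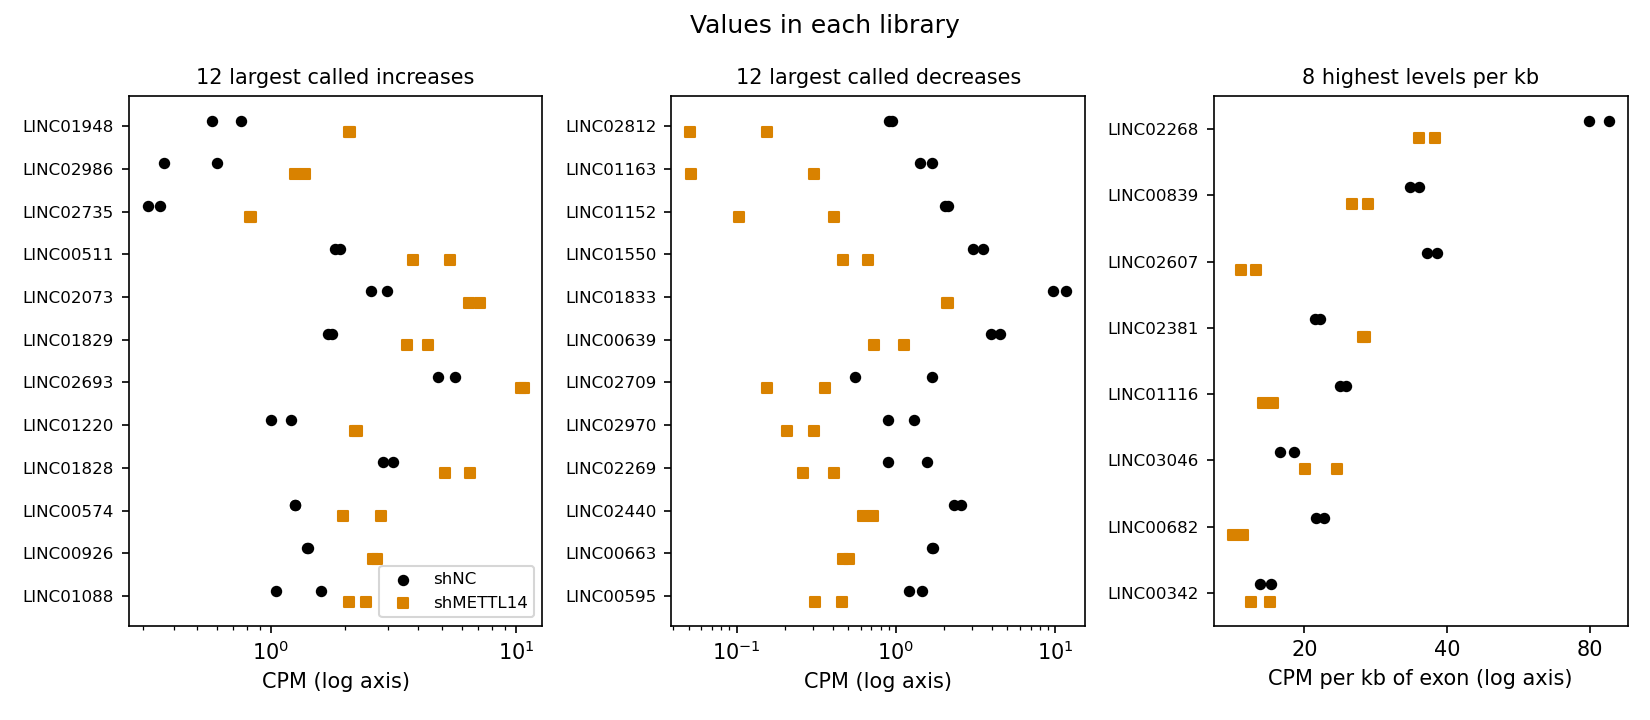
Points give each library's level on log axes, in CPM for the 12 largest called increases and decreases and in CPM per kb for the 8 highest genes; black circles are shNC and orange squares shMETTL14. The 2 groups do not overlap for any of the 24 called genes in the left and middle panels, which were picked by their change. The same holds for every LINC gene called, 24 higher and 80 lower, but with 2 libraries in each group this follows largely from the call itself.

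Among LINC genes known from neural tissue, LINC00632, the host transcript of the circular RNA CDR1as, had 1157 and 1038 counts in shNC and 725 and 690 in shMETTL14 (log2 fold change -0.62 ± 0.07 SE, edgeR adjusted p = 4.9e-08). It and LINC00839 were the 2 tested of 8 genes listed, and both were lower, where 25.3% of all genes were. Of 18 LINC genes often studied in tumor cells, 10 were tested. Of these, 3 were higher (30%, beside 27.2% of all genes), 4 were lower (40%, beside 25.3%) and 3 were not called. LINC00511 rose from 38 and 35 to 105 and 73 counts (1.29 ± 0.24). LINC00205, which starts 152 bases from POFUT2 on the other strand, fell from 557 and 543 to 265 and 289 counts (-0.98 ± 0.09). LINC00662 (0.15) and LINC00963 (0.17) were higher by small amounts that were not called with upper quartile scaling (0.09 and 0.11). LINC00662 was also not called without shMETTL14 replicate 2 (0.14), and LINC00963 without shNC replicate 2 (0.16) or shMETTL14 replicate 1 (0.13). LINC01234 (-1.12) was not called without shNC replicate 2 (-0.95) or shMETTL14 replicate 1 (-0.88), nor LINC00467 (-0.28) without shNC replicate 1 (-0.26) or shMETTL14 replicate 1 (-0.18). DESeq2 did not call LINC00467, LINC00662 or LINC00963 (adjusted p from 0.088 to 0.13). LINC00665 (-0.13), LINC00339 (0.15) and LINC01089 (-0.18) were not called, but LINC00665 was called lower with upper quartile scaling (-0.20, edgeR adjusted p = 0.037).

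The change of a LINC gene and that of its nearest protein-coding gene showed little relation. Over 178 pairs in which both were tested, Pearson's r of the log2 fold changes was -0.05 and Spearman's rho 0.03, across genes that share libraries and in part neighbors. In 57 pairs both genes were called, 31 of them in the same direction. Among 16 divergent pairs with starts within 5 kb, r was 0.48 and rho 0.21. LINC02593 and SAMD11 were both lower (-0.89 and -0.83), while LINC00235 was lower and CAPN15 higher (-1.01 and 0.62). No LINC gene of this set lay within 2 Mb of MYCN.

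**Figure D4:**
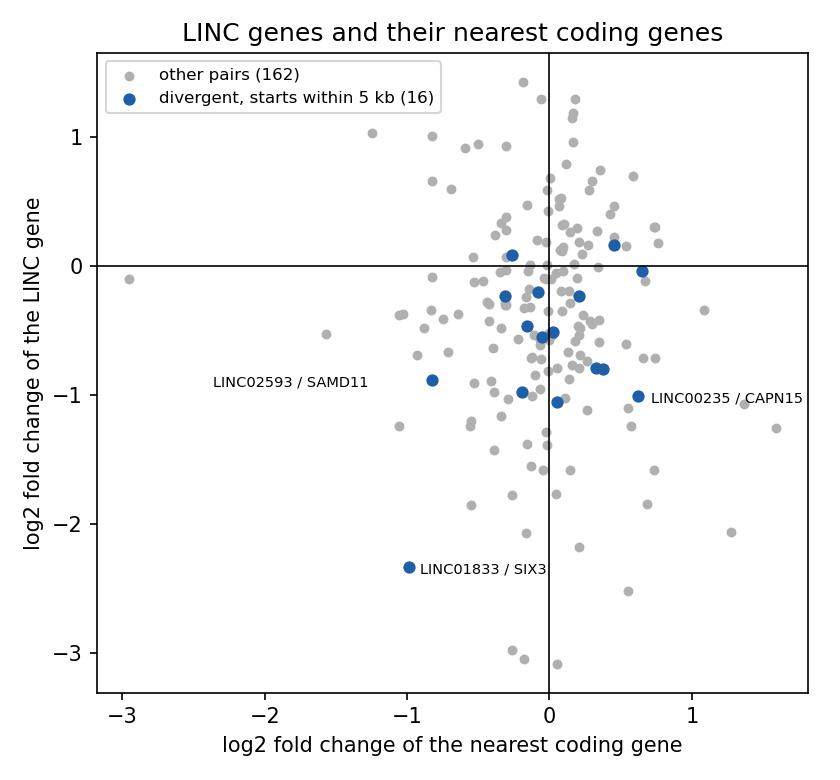
Each point is a LINC gene (vertical axis, log2 fold change) and its nearest protein-coding gene (horizontal axis, log2 fold change), with blue for 16 divergent pairs whose starts lie within 5 kb. LINC01833 and SIX3 sit lowest among the blue points, at -2.34 and -0.98.

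Genes of nuclear RNA surveillance included higher and lower ones. Of 24 listed genes, all tested, 10 were higher (41.7%, beside 27.2% of all genes), 5 lower (20.8%, beside 25.3%) and 9 not called, with a median log2 fold change of 0.10. At the level of these genes (4 log2 CPM and over), 39.5% of all genes tested were higher and 26.0% lower, so the shares in the list were near those. The 3 largest increases were in subunits of the RNA exosome. EXOSC4 rose from 551 and 531 to 1081 and 1060 counts (0.99 ± 0.07 SE), and EXOSC1 and EXOSC9 by 0.56 and 0.54. Of its other subunits, EXOSC2, EXOSC5, EXOSC6 and EXOSC7 were higher and EXOSC10 was lower (-0.15). EXOSC3 (0.19), EXOSC8 (0.04) and DIS3 (0.04) were not called. The largest decreases in the list were those of ZFC3H1 (-0.56) and ZCCHC8 (-0.40), which link transcripts to the exosome, and the helicase MTREX (-0.26). YTHDC1 was also lower (-0.12). Other cofactors in the list were higher, such as SRRT (0.43), MPHOSPH6 (0.29) and PABPN1 (0.17), or not called, such as RBM7 (0.12) and ZC3H18 (0.07). Of 30 long noncoding RNA genes with other names, 25 were tested. Of these, 2 were higher (8%, beside 27.2% of all genes), 16 lower (64.0%, beside 25.3%) and 7 not called (median -0.35). The 2 higher genes were MYCNOS, antisense to MYCN (0.51 ± 0.05), and MIR17HG, the host of a microRNA cluster (0.34 ± 0.07). NBAT1 (-1.08 ± 0.19), MIAT (-0.84 ± 0.13) and PURPL (-1.21 ± 0.50) had the largest decreases, and PURPL, at 18 and 15 against 6 and 8 counts, was not called without any 1 of the 4 libraries (-1.43 to -1.01) or by DESeq2.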

How the data were processed

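Total RNA was sequenced as paired 150-base reads. The values were unnormalized counts of reads for each Ensembl gene, in a single table that the authors deposited. The submitters' processing notes name HISAT2 2.1.0, StringTie 1.3.6, HTSeq 0.13.5, edgeR and GRCh38; their roles, the annotation release and the strand setting are not given in the sources used here. The 5 lines naming no gene held 19.1% to 19.9% of counts per library and were left out, and 0 other sample columns were present. Symbols were found for IDs through a gene name table that held 60401 of 60671 IDs. The LINC genes and gene lists were chosen with earlier results of these data known.

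Counts were tested with edgeR 4.0.16 in R 4.3.3 (quasi-likelihood F-test, TMM scaling, filterByExpr defaults, group as the only term), with Benjamini-Hochberg adjustment over 16309 genes. The script was tested on simulated data. With 2 libraries against 2, an exact permutation test cannot go below p = 0.333. Text names METTL14, the 12 largest called increases and decreases, the 8 highest levels per kb, listed genes, the genes at the threshold and nearest coding genes; for the surveillance and other noncoding lists, the 3 largest called changes each way. LINC02593, LINC00235, LINC02166, SRRT, MPHOSPH6, PABPN1, RBM7, ZC3H18, EXOSC2, EXOSC3, EXOSC5, EXOSC6, EXOSC7, EXOSC8, EXOSC10, DIS3, YTHDC1, EPCAM, S100B and the genes whose sequence is shown were picked after their values were seen. Alternatives were other scalings, filters and thresholds, a replicate block, leaving out each library, and DESeq2 1.42.0. Intervals cover counting error only.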

Additional observations from a re-analysis of the deposited data

How the results depend on the processing

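Of 104 LINC genes called, DESeq2 called 62, all among the 104, and leaving out 1 library gave 69 to 86. The count at 2-fold or more was 36 to 48 without 1 library, 30 at a threshold of 100 summed counts and 77 with a 1.5-fold limit. Among the 103 genes overlapping no other gene, 51 were called and 23 at 2-fold or more; here fewer genes were counted. The median log2 fold change was -0.44 with upper quartile scaling, which moved the median of all genes to -0.07, and -0.42 to -0.30 without 1 library. LINC00342 was not called and changed sign without shNC replicate 1 (0.0011) and without shMETTL14 replicate 2 (0.043), with values from -0.096 to 0.043 over the 4 libraries left out. Where no cause is named, the cause was not tested. The alternatives with GENCODE 29 symbols (88 called) and genes annotated as lincRNA alone (83 called), were chosen after seeing the data.

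Same-numbered libraries did not deviate together over all genes tested (Pearson's r -0.0018). This cannot exclude a culture or batch shared by such libraries, about which the labels say nothing. With a replicate block, 105 LINC genes were called, 49 at 2-fold or more, with a median of -0.38. Among the named genes, the block ended the call of PURPL alone (adjusted p = 0.053). At a median of 155 summed counts per LINC gene, changes well under 2-fold were often not detectable.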
